A study of Mus musculus with 12 samples.

Results

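The genes described here are the enzymes of glycolysis, the carriers that move glucose and lactate across the cell membrane, and established transcriptional targets of the response to low oxygen. They were chosen by symbol from a list of 35 genes, of which 32 were measured among 19938 genes on the arrays. The 32 comprised 12 of 15 glycolytic enzymes, 3 of 3 transporters and 17 of 17 hypoxia targets. Each gene was read through a probe set that the platform annotation gives to that gene alone, and the brightest was taken where a gene had several. Gapdh was annotated only on probe sets shared with other genes, and Gpi1 and Eno1 had no probe set of their own in that annotation, so these 3 enzymes are not analysed here.

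The cells were mouse embryonic fibroblasts (MEFs, labelled as from OG2 cross 129/sv), grown in mouse embryonic stem cell medium. The tested arm was infected with SKO, letters that the labels do not spell out and that are read here as the transcription factors Sox2, Klf4 and Oct4, used for reprogramming (Oct4 is encoded by Pou5f1). In addition, cells of this arm received a retrovirus carrying microRNA cluster C, one carrying cluster B or a blank control virus, and they were lysed 4 or 8 days after the first infection. The other arm had no SKO and received cluster C, cluster B or blank virus at the same days. OG2 mice carry a fluorescent reporter under Oct4 regulatory sequence, and the microRNAs of each cluster are not named in the labels. The number of animals or cultures behind each array is not given. Days and arms were taken from the sample titles, since the description label is the same on all 12 samples and names day 3, a day that no title gives.

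Glycolysis splits glucose to pyruvate in the cytosol, and lactate dehydrogenase then turns pyruvate to lactate, which regenerates the cofactor that glycolysis uses. When oxygen is scarce, prolyl hydroxylases stop marking the alpha subunits of hypoxia-inducible factor (HIF) for destruction, and HIF switches on glucose uptake, glycolysis, lactate export and genes that hold pyruvate out of mitochondria. Pluripotent stem cells rely on glycolysis more than fibroblasts do, and the shift towards it is a known feature of reprogramming.

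A single array was run for each of 12 conditions, so none was replicated and the number of arrays limits precision. Values are deposited log2 values, with array medians between 4.98 and 5.07 and lower quartiles between 3.48 and 3.68. Differences are in log2 units with the SE of a limma fit over all 12 arrays, and a gene is said to rise, fall or change only at a Benjamini-Hochberg adjusted p under 0.05 over all 19938 genes. The spread in that fit is the amount by which a virus effect varied between days, so p-values measure agreement among these arrays and not among repeated experiments. Titles of the arm without SKO all carry the tag Group2, and the arm cannot be told apart from that group. The arm labels were checked with Pou5f1, which was at 11.60 or above on each SKO array and at 4.56 or below on each of the others, and Klf4 was likewise higher (lowest 8.63 with SKO, highest 7.16 without). Myc ranged over 7.98 to 8.37 with SKO and 6.62 to 7.62 without. Sox2 lay at 5.34 to 5.47 with SKO at day 4, against 4.55 to 4.78 without SKO, and did not pass there. At day 8 Sox2 lay at 5.77 to 7.55 with SKO and 4.71 to 5.18 without. The SKO array of cluster C at day 8 stood apart: the summed linear signal of 7 pluripotency markers was 2333 there, against 363 with cluster B and 306 with blank virus. Values that leaving it out moved by more than 1.5 times, and counts that it changed, are given with and without it. In bulk RNA, fewer cells of a type and less RNA per cell cannot be told apart.

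**Figure D1:**
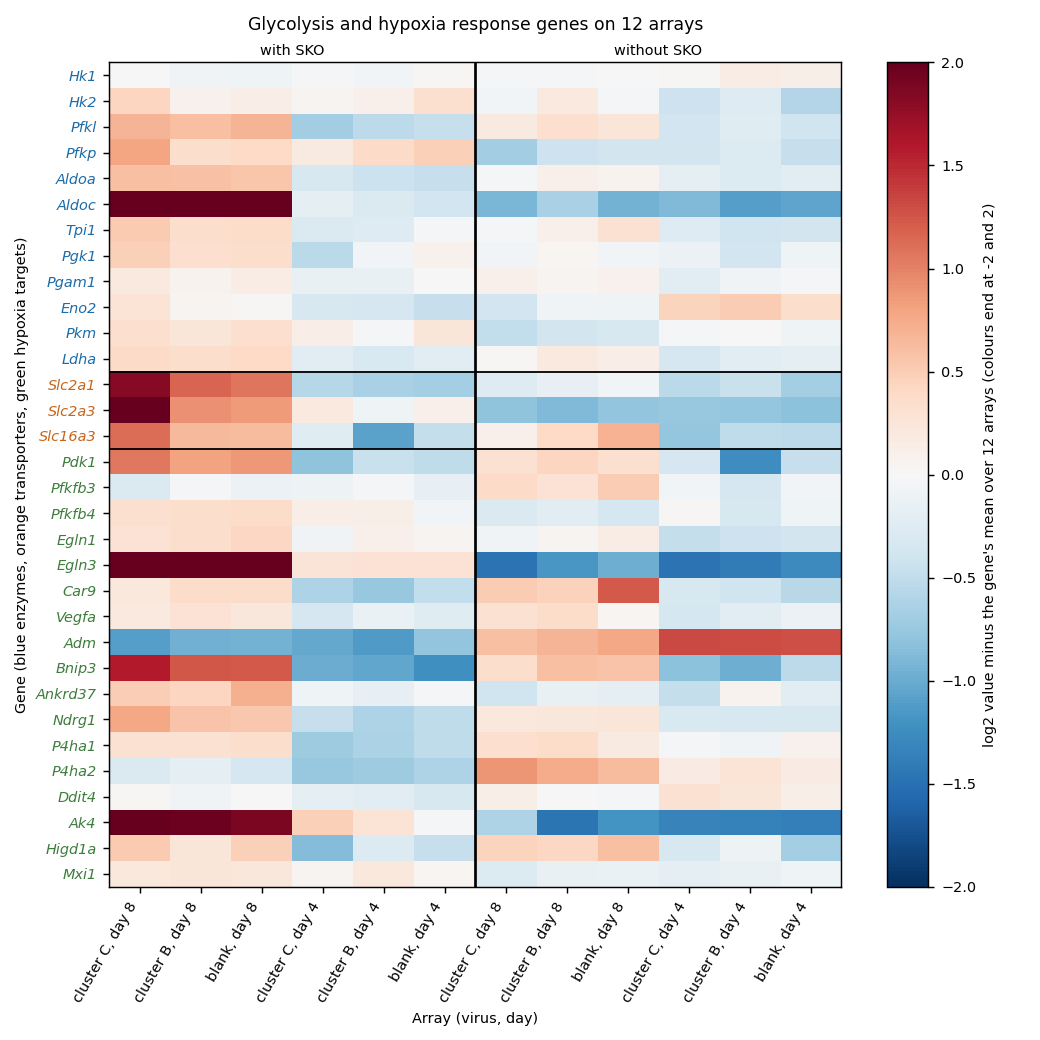
Colour shows the log2 value of each of 32 genes (rows) minus its mean over the 12 arrays (columns), on a scale that ends at -2 and 2, with arrays with SKO left of those without. The darkest red cells belong to Aldoc, Egln3 and Ak4 on arrays with SKO at day 8 and to Slc2a3 on the cluster C array there, and Adm is red only on arrays without SKO.

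With SKO, 29 of the 32 glycolysis and hypoxia genes had a higher mean at day 8 than at day 4. Of the 32 genes, 20 rose and 0 fell at day 8, while 8.9% of all genes tested changed (5.24% rose and 3.66% fell). The median difference of the 32 genes was 0.62, against -0.01 over all genes. All 3 transporters rose, as did 6 of 12 enzymes and 11 of 17 hypoxia targets. Values at day 8 and day 4 did not overlap for 25 of the 32 genes, and did not overlap for 28.2% of all genes. Leaving out the SKO array of cluster C at day 8, or that of blank virus at day 4, gave 14 genes in place of 20. Without the cluster C array, the calls lost were Tpi1 and Eno2 (enzymes) and Car9, Vegfa, P4ha2 and Higd1a (hypoxia targets).

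Among the enzymes, Aldoc, an aldolase that splits the 6-carbon sugar, had the largest rise with SKO. It lay at 8.55, 8.83 and 8.69 at day 8 (cluster C, cluster B and blank virus, the order used for arrays throughout), against 6.38, 6.28 and 6.18 at day 4. The 3 arrays of day 8 lay far above those of day 4, and Aldoc rose by 2.41 (SE 0.13, 5.31-fold, limma adjusted p = 4.84e-05). The other aldolase, Aldoa, lay at 11.43, 11.40 and 11.37 at day 8 and at 10.49, 10.38 and 10.35 at day 4, again with no overlap. Aldoa rose by 0.99 (SE 0.10, limma adjusted p = 0.000531). Pfkl, the liver-type phosphofructokinase that commits sugar to glycolysis, lay at 8.12, 8.05 and 8.12 at day 8 and at 6.75, 6.92 and 6.98 at day 4. The groups of arrays were separate, and Pfkl rose by 1.22 (SE 0.10, limma adjusted p = 0.000227).

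Of the enzymes further down the pathway, 3 rose with SKO. Tpi1, the isomerase that interconverts the triose phosphates, rose by 0.60 (SE 0.13, limma adjusted p = 0.0192). Ldha, the lactate dehydrogenase subunit favoured in anaerobic tissue, rose by 0.63 (SE 0.09, adjusted p = 0.00421). Eno2, the neuronal-type enolase, rose by 0.49 (SE 0.11, adjusted p = 0.0253), a call lost when any 1 of the 6 arrays with SKO was left out. Pgk1, the phosphoglycerate kinase that makes ATP, had no overlap between the days and a difference of 0.56 (SE 0.16), but missed the threshold in limma (adjusted p = 0.0594). Hk2, the inducible hexokinase, Pfkp, the platelet-type phosphofructokinase, Pgam1, the phosphoglycerate mutase, and Pkm, the pyruvate kinase, had differences of 0.06, 0.17, 0.24 and 0.19 and did not pass. Hk1, the housekeeping hexokinase, had a difference of -0.03 on a probe set whose single listed transcript is also listed by all 16 probe sets that name both Hk1 and the ribosomal gene Rpl17. The other Hk1 probe set, with a mean of 6.86 over the arrays against 12.2, did not pass either, at 0.12 (SE 0.10).

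All 3 transporters carry fuel or its product across the membrane. Slc2a1, which encodes the glucose carrier GLUT1, lay at 10.06, 9.41 and 9.31 with SKO at day 8 and at 7.67, 7.6 and 7.56 at day 4. The lowest day 8 array was well above the highest of day 4, and the rise was 1.98 (SE 0.14, 3.95-fold, limma adjusted p = 0.000138). Slc16a3, which encodes the lactate exporter MCT4, rose by 1.40 (SE 0.13, adjusted p = 0.000462). Slc2a3, which encodes the high-affinity glucose carrier GLUT3, lay at 9.19, 7.26 and 7.18 at day 8, against 6.53, 6.25 and 6.44 at day 4. The cluster C array was almost 2 log2 units above the other arrays of day 8. Slc2a3 rose by 1.47 (SE 0.30, limma adjusted p = 0.0177), and by 0.87 (adjusted p = 0.0104) when either of the 2 arrays with SKO and cluster C was left out of the fit.

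**Figure D2:**
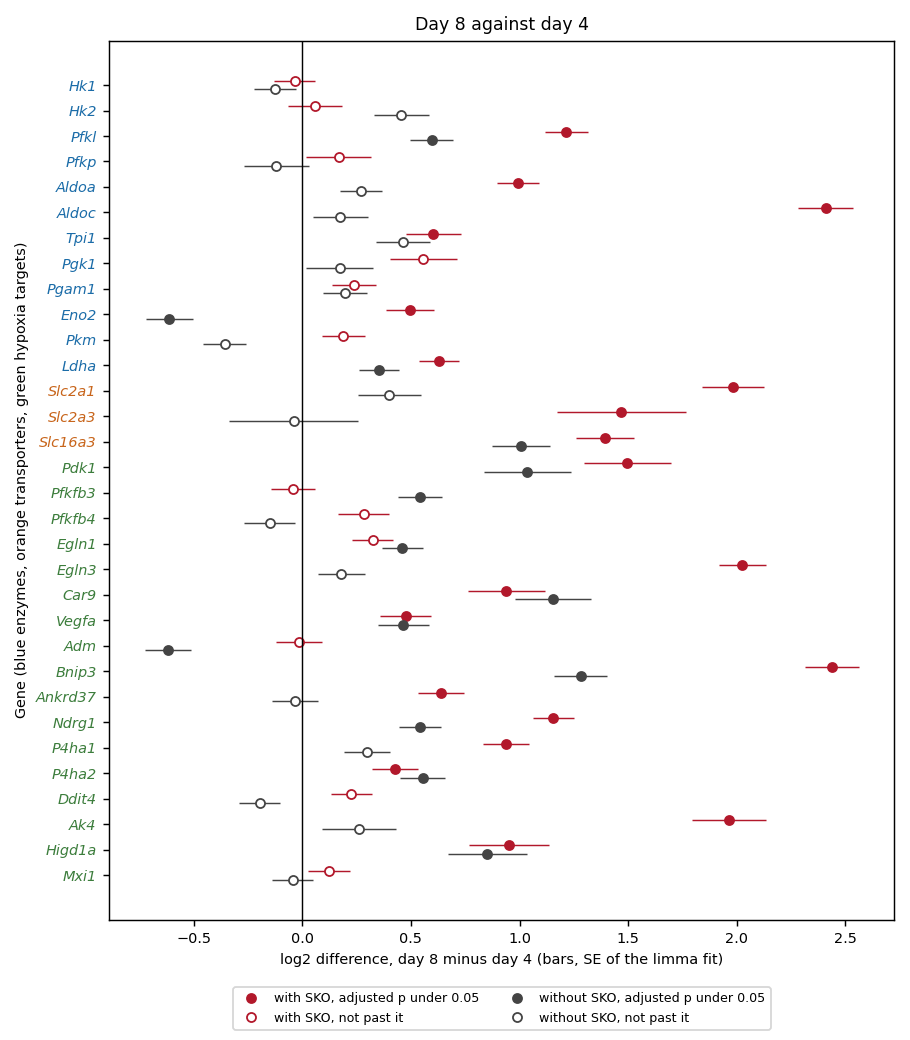
Horizontal axis, log2 difference between day 8 and day 4 for each of 32 genes (vertical axis) with SKO (red) and without SKO (grey), with bars for the SE of the limma fit and filled points at an adjusted p under 0.05. With SKO, 20 filled points lie to the right of 0 and none to the left, and without SKO 12 lie to the right and 2, Eno2 and Adm, to the left.

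Of the hypoxia targets, Bnip3, a mitochondrial protein that promotes removal of mitochondria, had the largest rise with SKO on its brightest probe set (2.44, against 1.55 on its other probe set, which is below Egln3). It lay at 9.43, 9.09 and 9.07 at day 8 and at 6.85, 6.81 and 6.62 at day 4, groups that were far apart. The rise was 2.44 (SE 0.12, 5.43-fold, limma adjusted p = 4.84e-05). Egln3, which encodes the HIF prolyl hydroxylase PHD3 and is itself a HIF target, lay at 8.83, 8.71 and 8.55 at day 8 and at 6.65, 6.68 and 6.68 at day 4. Its rise was 2.03 (SE 0.11, adjusted p = 4.84e-05). Ak4, a mitochondrial adenylate kinase, lay at 8.61, 7.80 and 7.72 at day 8 and at 6.31, 6.11 and 5.82 at day 4, with the cluster C array highest on each day. Ak4 rose by 1.96 (SE 0.17, limma adjusted p = 0.000303).

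Pdk1, the kinase that inhibits pyruvate dehydrogenase, rose by 1.5 with SKO (SE 0.20, limma adjusted p = 0.00263). Ndrg1, a stress-responsive gene linked to differentiation, rose by 1.16 (SE 0.10). P4ha1 and P4ha2, catalytic subunits of collagen prolyl hydroxylase, rose by 0.94 (SE 0.11) and 0.43 (SE 0.10), and the call for P4ha2 was lost when any 1 of the 12 arrays was left out. Car9, the carbonic anhydrase at the cell surface, rose by 0.94 (SE 0.18), with day 4 values between 3.45 and 3.72, about the lower quartiles of the arrays, and its call was lost when any 1 of the 6 arrays with SKO was left out. Ankrd37, an ankyrin repeat gene induced by HIF, rose by 0.64 (SE 0.11), and Higd1a, a mitochondrial protein of the inner membrane, by 0.95 (SE 0.18). Vegfa, the angiogenic growth factor, rose by 0.48 (SE 0.12, adjusted p = 0.0399), a call kept in 2 of 12 fits that each left out 1 array. The calls for Tpi1 and Higd1a were kept in 8 of these 12 fits and that for Ankrd37 in 10.

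Egln1, which encodes the main HIF prolyl hydroxylase PHD2, had a difference of 0.32 with SKO and missed the threshold (limma adjusted p = 0.0685). The bifunctional enzymes that set the level of the phosphofructokinase activator, Pfkfb3 and Pfkfb4, had differences of -0.04 and 0.28. Adm, the vasodilator peptide adrenomedullin, stood at -0.01, Ddit4, an inhibitor of mTORC1 signalling, at 0.22 and Mxi1, an antagonist of Myc, at 0.12. None of these 6 genes passed.

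Without SKO, Bnip3, Car9, Pdk1 and Slc16a3 led the genes that were higher at day 8. Of the 32 genes, 12 rose and 2 fell at day 8, while 8.68% of all genes changed (4.05% rose and 4.63% fell), and the median difference was 0.28 against 0.01 over all genes. The risers were 2 of 12 enzymes (Pfkl and Ldha), 1 of 3 transporters (Slc16a3) and 9 of 17 hypoxia targets. Values of the days did not overlap for 24 of the 32 genes and for 30.1% of all genes. The count of 14 fell to between 4 and 6 when any 1 of the 6 arrays without SKO was left out, lowest without the array of cluster C at either day. Leaving out the SKO array of cluster C at day 8 gave 13. The calls for Bnip3, Slc16a3 and Car9 held in all 12 fits that each left out 1 array.

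Bnip3 lay at 8.2, 8.45 and 8.41 without SKO at day 8, against 7.02, 6.87 and 7.32 at day 4, a separated rise of 1.28 (SE 0.12, limma adjusted p = 0.000566). Slc16a3 lay at 6.51, 6.81 and 7.10 at day 8 and at 5.63, 5.89 and 5.88 at day 4. It rose by 1.01 (SE 0.13, limma adjusted p = 0.00324). Car9 rose by 1.15 (SE 0.18), Pdk1 by 1.04 (SE 0.20), Higd1a by 0.85 (SE 0.18) and Pfkl by 0.60 (SE 0.10). P4ha2, Pfkfb3, Ndrg1, Egln1, Vegfa and Ldha rose by between 0.35 and 0.55, and the call for Ldha was lost when any 1 of the 12 arrays was left out. The calls for P4ha2, Pfkfb3, Ndrg1 and Egln1 were kept in 6 of these 12 fits and that for Vegfa in 2. Eno2 fell by 0.61 (SE 0.11) and Adm fell by 0.62 (SE 0.11). The calls for Pdk1, Higd1a, Pfkl, Eno2 and Adm were kept in 8 of the 12 fits.

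The day comparisons with SKO and without SKO use different arrays. In both, 10 genes rose: Pfkl and Ldha among the enzymes, Slc16a3 among the transporters, and Bnip3, Car9, Higd1a, Ndrg1, P4ha2, Pdk1 and Vegfa among the hypoxia targets. They are 50% of the 20 that rose with SKO and 83.3% of the 12 that rose without SKO. Among all genes, 235 rose in both (1.18% of those tested), which is 22.5% of the 1045 that rose with SKO and 29.1% of the 807 that rose without SKO. Egln1 and Pfkfb3 passed without SKO and did not pass with SKO. Of the 10 genes, P4ha2 with SKO and Ldha without SKO lost their call when any 1 of the 12 arrays was left out. Vegfa kept its call in 2 of these 12 fits in each arm. Leaving out the SKO array of cluster C at day 8 lost the calls for Car9, Higd1a, P4ha2 and Vegfa with SKO. It also lost those for Vegfa and Ldha without SKO. Read through their other probe sets, Bnip3 did not pass without SKO and Higd1a did not pass with SKO.

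The day change with SKO was then set against the day change without SKO in a direct test, which draws on the same arrays as the day comparisons. The rise was larger with SKO for 9 of the 32 genes and smaller for 0, while 2.97% of all genes differed (1.97% in the direction of a larger rise and 1.0% in the other). The count of 9 was 7 when the SKO array of cluster C at day 8 was left out. The median over the 32 genes was 0.43, against -0.02 over all genes. Aldoc differed by 2.24 (SE 0.18, limma adjusted p = 0.00075), Egln3 by 1.85 (SE 0.15) and Slc2a1 by 1.58 (SE 0.20). Without SKO, Aldoc lay at 5.65, 5.91 and 5.61 at day 8 and at 5.68, 5.46 and 5.51 at day 4, so that the days overlapped. Egln3 likewise overlapped without SKO, at 4.90, 5.22 and 5.41 at day 8 and 4.90, 4.99 and 5.11 at day 4.

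Slc2a1 without SKO lay at 8.00, 8.08 and 8.2 at day 8 and at 7.70, 7.80 and 7.57 at day 4, a difference of 0.40 (SE 0.14) that missed the threshold. Ak4 differed between the arms in its day change by 1.70 (SE 0.24, limma adjusted p = 0.00879) and Bnip3 by 1.16 (SE 0.17, adjusted p = 0.0111). Eno2 had opposite day changes. It lay at 6.24, 6.03 and 5.99 at day 8 and 5.64, 5.63 and 5.5 at day 4 with SKO, but at 5.59, 5.90 and 5.88 at day 8 and 6.42, 6.47 and 6.32 at day 4 without SKO. Neither pair of days overlapped, and the day changes differed by 1.11 (SE 0.16, adjusted p = 0.00848). Aldoa, Ankrd37 and Ndrg1 differed by 0.72, 0.67 and 0.61, and each of these 3 calls was lost when any 1 of the 12 arrays was left out. Slc2a3 differed by 1.51 (SE 0.42, limma adjusted p = 0.102), which did not pass, and by 0.92 (adjusted p = 0.0452) without the SKO array of cluster C at day 8.

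**Figure D3:**
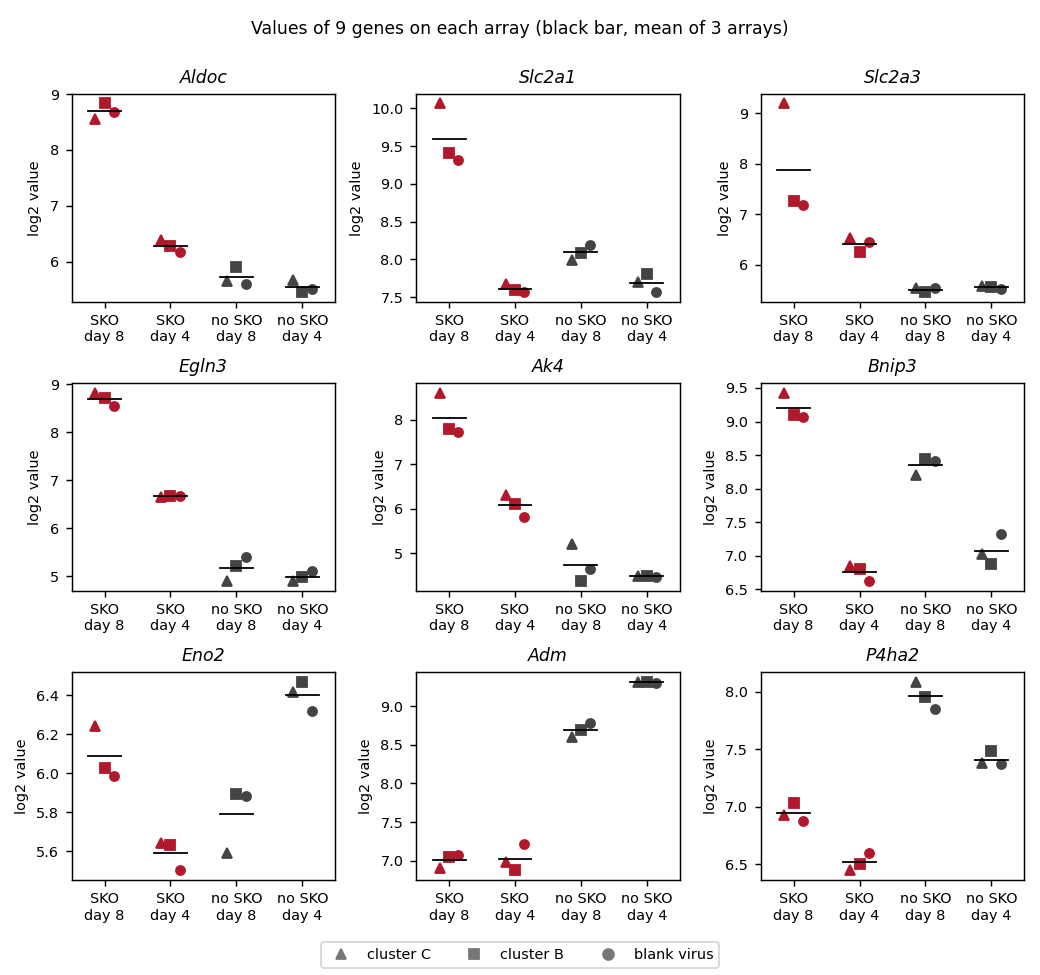
Log2 values (vertical axis) of 9 genes on each array, with SKO in red and without SKO in grey, day 8 left of day 4 in each arm, marker shape for the virus and a bar for the mean of 3 arrays. Aldoc, Slc2a1, Egln3 and Ak4 are highest with SKO at day 8, Adm and P4ha2 are higher without SKO at both days, and Slc2a3 has a single array at 9.19.

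For 5 genes (Hk1, Pkm, Bnip3, Ak4 and Higd1a) the brightest probe set sits, in the order of probe set numbers, among probe sets of another chromosome, whereas 96.8% of probe sets of 1 gene sit among those of their own. Read through a probe set that sits on its own chromosome, Ak4 still rose with SKO, by 1.23 (SE 0.20, limma adjusted p = 0.00605), and Bnip3 by 1.55 (SE 0.17, adjusted p = 0.00095). The difference between the arms in day change was then 1.14 for Ak4 (adjusted p = 0.0674) and 0.96 for Bnip3 (adjusted p = 0.0757), past the threshold for neither, and the rise of Bnip3 without SKO was 0.59 (adjusted p = 0.0644). Higd1a had a difference of 0.26 with SKO (adjusted p = 0.385) and rose by 0.68 without SKO (adjusted p = 0.0315).

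The stretches of 250 bases before the annotated start of the 5 genes with the largest called difference in day change and a promoter in the table used are printed here, from RefSeq of GRCm38.p6. They show how the core letters bound by HIF, ACGTG or GCGTG, are placed in front of genes that moved together. Each runs 5' to 3' on the gene's strand and capitals mark ACGTG or GCGTG on either strand, so CACGT and CACGC are the reverse-strand forms. Aldoc lies at chr11:78322823-78323072 (plus strand, 1 of 2 listed starts), Egln3 at chr12:54203875-54204124 (minus strand), Ak4 at chr4:101419039-101419288 (plus strand, 1 of 4 listed starts), Slc2a1 at chr4:119108495-119108744 (plus strand) and Bnip3 at chr7:138909507-138909756 (minus strand).
Aldoc: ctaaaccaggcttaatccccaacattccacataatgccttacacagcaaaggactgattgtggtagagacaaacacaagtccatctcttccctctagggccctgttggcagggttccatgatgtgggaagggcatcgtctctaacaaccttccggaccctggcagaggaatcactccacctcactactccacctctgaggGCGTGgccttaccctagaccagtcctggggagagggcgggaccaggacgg
Egln3: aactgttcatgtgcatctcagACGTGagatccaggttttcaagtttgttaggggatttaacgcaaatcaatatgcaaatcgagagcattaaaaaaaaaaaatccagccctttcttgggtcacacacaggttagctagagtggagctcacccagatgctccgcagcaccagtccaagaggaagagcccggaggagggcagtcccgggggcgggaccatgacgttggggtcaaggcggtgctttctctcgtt
Ak4: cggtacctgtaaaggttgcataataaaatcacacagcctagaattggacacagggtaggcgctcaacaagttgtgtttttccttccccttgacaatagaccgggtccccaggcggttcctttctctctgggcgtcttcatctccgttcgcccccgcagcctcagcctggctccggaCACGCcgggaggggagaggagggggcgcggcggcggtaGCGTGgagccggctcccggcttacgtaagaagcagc
Slc2a1: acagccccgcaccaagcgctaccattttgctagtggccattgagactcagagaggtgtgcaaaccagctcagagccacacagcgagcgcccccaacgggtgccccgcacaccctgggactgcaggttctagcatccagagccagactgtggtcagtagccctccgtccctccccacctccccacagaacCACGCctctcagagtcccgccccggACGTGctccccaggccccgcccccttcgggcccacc
Bnip3: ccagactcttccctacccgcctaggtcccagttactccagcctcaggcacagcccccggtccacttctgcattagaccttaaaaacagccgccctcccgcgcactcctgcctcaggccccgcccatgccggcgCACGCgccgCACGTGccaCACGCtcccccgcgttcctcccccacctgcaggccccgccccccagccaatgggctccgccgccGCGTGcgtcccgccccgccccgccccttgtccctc

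These windows differ in how many core letters they hold. Bnip3 has CACGTG, which reads as ACGTG on each strand, and 3 copies of GCGTG, while Aldoc has 1 GCGTG and Egln3 1 ACGTG. Slc2a1 has 1 of each and Ak4 2 copies of GCGTG. Of the 32 genes, 30 had promoters in the table (Slc2a3 and Ndrg1 had none), with 44 windows in all, some of which overlap. ACGTG was found on either strand in 52.3% of the 44 windows, against 16.6% of all 32851 promoter windows and 25.4% of the 7120 that had at least as many CpG dinucleotides as the median of the 44. By role, ACGTG was in 7 of 18 windows of enzymes, 2 of 2 of transporters and 14 of 24 of hypoxia targets. GCGTG was in 52.3% of the 44 windows, against 28.2% of all windows and 59.9% of the CpG-rich ones. The CpG-rich windows had a median of 24 CpG, against 17.5 in the 44 windows, so they are not matched in base composition. CACGTG, which contains ACGTG and is also the core letters of the Myc family, was in 9.09% of the 44, in 6.02% of all windows and in 9.97% of the CpG-rich ones. The list was chosen to hold targets of the response to low oxygen, and its windows were read whether or not a gene was called. These shares thus describe the list and not the results of these arrays. A match of letters is a description and not a bound site.

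At day 8, cells with SKO had higher values than cells without SKO for 15 of the 32 genes and lower values for 3, while 26.1% of all genes changed (13.4% higher and 12.7% lower). The median difference was 0.40, against -0.07 over all genes. By role, 5 of 12 enzymes, 2 of 3 transporters and 8 of 17 hypoxia targets were higher. The 3 lower genes were all hypoxia targets (Pfkfb3, Adm and P4ha2). Arrays of the arms did not overlap for 24 of the 32 genes, and for 44.9% of all genes. The count of 18 was 14 when the SKO array of cluster C at day 8 was left out. These arrays are shared with the day comparisons, so the rises of Aldoc, Egln3, Ak4 and Slc2a1 enter both.

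Egln3 lay at 8.83, 8.71 and 8.55 with SKO at day 8, against 4.90, 5.22 and 5.41 without SKO, and was 3.52 higher (SE 0.11, 11.4-fold, limma adjusted p = 2.14e-07). Ak4 was 3.30 higher (SE 0.17, 9.83-fold), with 8.61, 7.80 and 7.72 with SKO and 5.22, 4.38 and 4.64 without. Its probe set on its own chromosome gave 1.99 (SE 0.20, adjusted p = 8.36e-05). Aldoc was 2.96 higher (SE 0.13, 7.80-fold), and no array with SKO came near those without. Slc2a3 lay at 9.19, 7.26 and 7.18 with SKO and at 5.53, 5.46 and 5.54 without SKO. It was 2.37 higher (SE 0.30, limma adjusted p = 0.000412), and 1.77 higher (adjusted p = 7.4e-05) without the cluster C array.

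Slc2a1 was 1.5 higher with SKO at day 8 (SE 0.14, limma adjusted p = 7.59e-05). Among the enzymes, Pfkp was 1.01 higher (SE 0.15), Pkm 0.70 (SE 0.10), Aldoa 0.54 (SE 0.10) and Pfkl 0.40 (SE 0.10). Pfkp lay at 8.05, 7.62 and 7.66 with SKO and at 6.57, 6.86 and 6.89 without SKO, and Pkm at 10.74, 10.65 and 10.74 with SKO and at 9.91, 10.04 and 10.08 without. Both pairs were separate, and Pkm gave 0.67 (adjusted p = 0.0026) through its other probe set. Bnip3 was 0.84 higher (SE 0.12), Ankrd37 0.78 (SE 0.11), Pfkfb4 0.63 (SE 0.12), Mxi1 0.41 (SE 0.09) and Ndrg1 0.40 (SE 0.10). Of 12 fits that each left out 1 array, the calls for Pfkl and Ndrg1 were kept in 7 and that for Mxi1 in 8, and all 3 were lost without the SKO array of cluster C at day 8. Egln1 was 0.31 higher (SE 0.09, adjusted p = 0.0408), a call lost when any 1 of the 12 arrays was left out. Ldha, Pgk1, Tpi1 and Eno2 had differences of 0.26, 0.41, 0.29 and 0.30 with no overlap between the arms and did not pass.

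Adm was the strongest exception. It lay at 6.90, 7.05 and 7.07 with SKO at day 8, against 8.61, 8.69 and 8.78 without SKO. Adm was 1.69 log2 units lower with SKO, a difference of -1.69 (SE 0.11, 3.22-fold, limma adjusted p = 5.87e-06). P4ha2 lay at 6.93, 7.03 and 6.88 with SKO and at 8.09, 7.96 and 7.85 without SKO, a difference of -1.02 (SE 0.10). Pfkfb3 lay at 5.40, 5.66 and 5.58 with SKO and at 6.07, 5.98 and 6.20 without SKO, a difference of -0.54 (SE 0.10). In all 3 the arms were separate. Vegfa and P4ha1 had differences of 0.00 (SE 0.12) and 0.02 (SE 0.11), and Car9 one of -0.41 (SE 0.18).

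**Figure D4:**
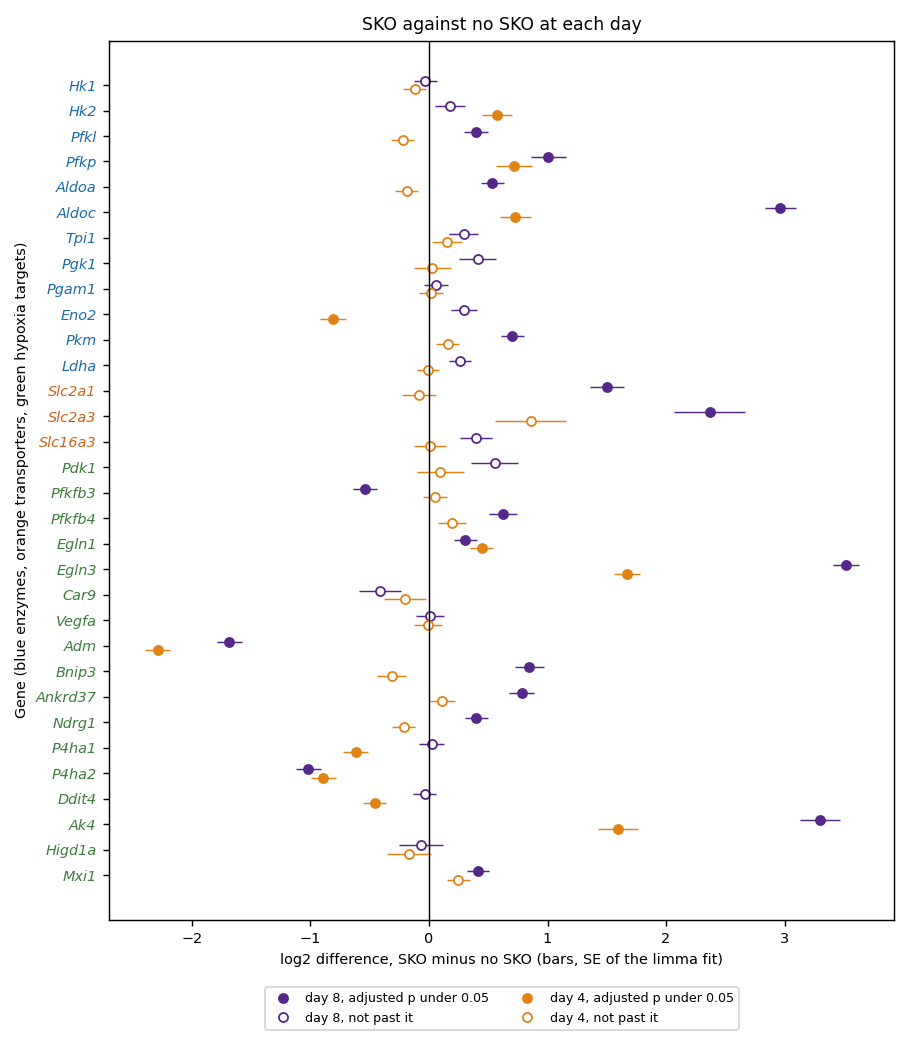
Horizontal axis, log2 difference between SKO and no SKO for each of 32 genes (vertical axis) at day 8 (purple) and day 4 (orange), with bars for the SE of the limma fit and filled points at an adjusted p under 0.05. Egln3, Ak4 and Aldoc lie between 2.96 and 3.52 at day 8, and Adm lies at -1.69 at day 8 and -2.29 at day 4.

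At day 4 the arms differed in both directions for these genes. With SKO, 6 of the 32 were higher and 5 lower, while 18.9% of all genes changed (9.52% higher and 9.4% lower), and the median difference was 0.01 against -0.04 over all genes. Enzymes had 3 of 12 higher (Hk2, Pfkp and Aldoc) and 1 lower (Eno2), transporters had 0 of 3 in either direction, and hypoxia targets had 3 of 17 higher (Egln1, Egln3 and Ak4) and 4 lower (Adm, P4ha1, P4ha2 and Ddit4). Arrays of the arms did not overlap for 18 of the 32 genes, and for 33.7% of all genes. When the SKO array of blank virus at day 4 was left out, 7 genes passed in place of 11, and 12 passed without the SKO array of cluster C at day 8.

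Egln3 lay at 6.65, 6.68 and 6.68 with SKO at day 4, against 4.90, 4.99 and 5.11 without SKO, and was 1.67 higher (SE 0.11, limma adjusted p = 1.62e-05). Ak4 was 1.59 higher (SE 0.17) and Aldoc 0.73 higher (SE 0.13), so these 3 genes already differed at the earlier day. The Ak4 probe set on its own chromosome gave 0.85 (SE 0.20, limma adjusted p = 0.0149). Pfkp and Hk2 were 0.72 (SE 0.15) and 0.58 (SE 0.13) higher. Of 12 fits that each left out 1 array, the day 4 calls for Hk2 and Egln1 were kept in 8 and those for Pfkp and Ddit4 in 9. Hk2 lay at 7.0, 7.05 and 7.27 with SKO and at 6.54, 6.69 and 6.36 without SKO at day 4, but at day 8 the arms overlapped and the difference was 0.18 (SE 0.13). Adm lay at 6.98, 6.88 and 7.21 with SKO and at 9.32, 9.31 and 9.30 without SKO, a difference of -2.29 (SE 0.11, 4.89-fold, adjusted p = 2.35e-06). Eno2, P4ha1, P4ha2 and Ddit4 had differences of -0.81, -0.62, -0.89 and -0.46. Slc2a1 and Slc16a3 had values of -0.08 (SE 0.14) and 0.01 (SE 0.13) at day 4, and Slc2a3 one of 0.86 (SE 0.30, limma adjusted p = 0.0807). The value of Slc2a3 was again 0.86, but past the threshold (adjusted p = 0.000965), when the SKO array of cluster C at day 8 was left out.

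Markers of cell types moved with SKO beside these genes. At day 8, 5 of 8 fibroblast markers were lower with SKO and 0 higher, while 26.1% of all genes changed. The summed linear signal of the fibroblast markers was 10780 to 12723 with SKO and 23251 to 24468 without SKO. All 5 epithelial markers were higher (summed 578 to 1150 with SKO and 164 to 207 without), as were 4 of 7 pluripotency markers (306 to 2333 with SKO and 136 to 152 without). Of 6 leukocyte markers 5 were lower and 1 higher (235 to 283 with SKO and 401 to 469 without). Of 4 endothelial markers only Tek was higher, at 8.60 to 8.78 with SKO and 4.95 to 5.37 without. Pecam1, Cdh5 and Kdr overlapped between the arms. The gap in the endothelial sum (445 to 482 with SKO and 74.7 to 90.9 without) thus came from Tek. At day 4 fibroblast markers summed to 12670 to 15453 with SKO and 22620 to 23259 without SKO, and pluripotency markers to 121 to 143 with SKO and 130 to 163 without. At day 4, 5 of 8 fibroblast markers were lower with SKO and 3 of 5 epithelial markers higher, while 18.9% of all genes changed. Between the days with SKO, all 5 epithelial and 4 of 7 pluripotency markers rose, as did 1 fibroblast and 1 leukocyte marker. Without SKO 2 leukocyte markers and 1 endothelial marker rose. Of all genes, 8.9% changed between the days with SKO and 8.68% without SKO. No marker lay below the lower quartile on all arrays. The part of these markers in the results on glycolysis and hypoxia genes was not tested.

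Of 8 measured genes that sense oxygen and regulate the targets, 1 was higher and 2 lower with SKO at each day. Over all genes, 26.1% changed at day 8 and 18.9% at day 4. Hif1a and Arnt2 were lower at both days, Epas1 was higher and the other 5 did not pass. Hif1a, which encodes the HIF-1 alpha subunit, lay at 8.31, 8.22 and 8.36 with SKO at day 8, against 9.17, 9.22 and 8.98 without SKO. The arms were separate, with differences of -0.83 at day 8 (SE 0.12, limma adjusted p = 0.000923) and -0.72 at day 4 (SE 0.12). Epas1, which encodes the HIF-2 alpha subunit, lay at 7.71, 7.78 and 7.73 with SKO at day 8 and at 5.94, 5.70 and 5.67 without SKO. It was 1.97 higher at day 8 (SE 0.11, 3.91-fold, adjusted p = 2.48e-06) and 1.69 higher at day 4, and it rose between the days by 0.80 with SKO and by 0.52 without SKO.

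Arnt2, a partner of the alpha subunits, had differences of -0.43 at day 8 and -0.64 at day 4. The other regulators did not pass at either day. At day 8 their differences were 0.17 for Arnt, the main partner subunit, -0.10 for Vhl, the ligase subunit that binds hydroxylated HIF, 0.05 for Egln2, the prolyl hydroxylase PHD1, 0.28 for Hif1an, the asparaginyl hydroxylase, and -0.26 for Hif3a, a further alpha subunit. HIF is regulated chiefly by protein stability, which these arrays do not measure.

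Genes of the pathway outside the 32 were read for comparison. Of 31 further measured hypoxia targets, 13 were higher and 8 lower with SKO at day 8, against 26.1% of all genes changed, and 9 rose and 2 fell between the days with SKO, against 8.9%. Without the SKO array of cluster C at day 8 these counts were 11 and 7, and 5 and 2. Cxcr4, a chemokine receptor, was 2.19 higher (SE 0.21), Kdm3a, a histone demethylase, 1.73 higher (SE 0.11) and Tfrc, the transferrin receptor, 1.43 higher (SE 0.29). Tfrc lay at 7.74, 6.25 and 6.09 with SKO at day 8, and leaving out the high cluster C array gave 0.86 (SE 0.13, limma adjusted p = 0.00337). Lox, the collagen crosslinking oxidase, had a difference of -1.62 (SE 0.10), Angptl4, a secreted lipase inhibitor, one of -1.13 (SE 0.13) and Car12, a carbonic anhydrase, one of -1.10 (SE 0.13).

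Of 29 further genes of glycolysis and pyruvate use, 6 were higher and 6 lower with SKO at day 8, against 26.1% of all genes changed. Between the days with SKO 3 rose and 0 fell, close to the 8.9% of all genes that changed. Without the SKO array of cluster C at day 8, 2 were higher and 2 lower, and 2 rose and 0 fell. Fbp2, the muscle fructose bisphosphatase of the reverse pathway, was 1.49 higher (SE 0.13), Pfkfb2, a further bifunctional enzyme, 0.76 higher (SE 0.10) and Eno3, the muscle-type enolase, 0.57 higher (SE 0.18, limma adjusted p = 0.0437). Eno3 lay at 6.57, 6.21 and 6.28 with SKO at day 8, and without the cluster C array its difference was 0.29 (SE 0.15, adjusted p = 0.248), which did not pass. Slc16a7, the carrier MCT2, Pdk4, a pyruvate dehydrogenase kinase, and Pgam2, the muscle-type mutase, had differences of -1.08, -1.0 and -0.77. Without the same array, Pgam2 stood at -0.58 (limma adjusted p = 0.0709) and did not pass. Of 6 pentose phosphate genes Pgd, which makes NADPH, was higher, by 0.52, and of 15 genes of the citric acid cycle Ogdh, a subunit of the oxoglutarate dehydrogenase complex, was lower, at -0.36. These are shares below the 26.1% of all genes that changed, and without the same array Ogdh stood at -0.31 (limma adjusted p = 0.193) and did not pass.

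The microRNA clusters were compared in a fit that takes a virus effect as shared by both days, with 2 arrays for each virus in each arm. This fit called at most 4 genes in any cluster comparison, so the absence of a call among the 32 genes does not show that the clusters acted alike. In limma, 0 of the 32 changed with cluster C against blank virus with SKO, while 4 of 19938 genes did (0.0201%). At an unadjusted p under 0.05 there were 3 of the 32 (Slc2a3, Ak4 and Slc2a1), and 6.82% of all genes. With cluster B against blank virus with SKO, 0 of the 32 passed after adjustment (0.01% of all genes) and 0 at an unadjusted p under 0.05 (3.08%). Between cluster C and cluster B with SKO, 0 passed after adjustment (0.0201%) and 3 without it (5.53%). Without SKO, limma called 0 of the 32 and 0.0% of all genes for cluster C or B against blank virus and for cluster C against B, and at an unadjusted p under 0.05 there were 2 (4.72% of all genes), 0 (5.86%) and 1 (6.32%) of the 32 in that order. The direct limma tests of a cluster effect with SKO against that without SKO also called 0 of the 32 and 0.0% of all genes, and without adjustment 3 for cluster C (5.79%) and 0 for cluster B (5.2%).

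The cluster C array with SKO at day 8 held the largest single difference among the 32 genes. Slc2a3 lay at 9.19 with cluster C, against 7.26 with cluster B and 7.18 with blank virus, so that cluster C was 2.01 above blank virus. At day 4 the same difference was 0.09. In limma over both days cluster C was 1.05 above blank virus (SE 0.37, adjusted p = 0.687), and leaving out the day 4 array of cluster C gave 1.94 (SE 0.17, adjusted p = 0.0192), while leaving out its day 8 array gave 0.16 (adjusted p = 0.894). With the day 4 array left out, the value rests on the day 8 array alone, which is assumed to vary as the other arrays do.

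Ak4 stood 0.90 above blank virus with cluster C at day 8 and 0.49 at day 4, Slc2a1 0.75 and 0.10, and Slc16a3 0.48 and 0.24. These are differences between single arrays and carry no test. All 3 transporters were thus above blank virus at each day, while the median of the 32 genes was 0.05 at day 8 and -0.06 at day 4. Slc2a3 was the only 1 of the 32 to differ by 1 log2 unit or more at day 8, a size that 0.497% of all genes reached in either direction and 78 genes (0.391%) upward. With cluster B and SKO, the 32 genes lay between -0.27 and 0.17 around blank virus at day 8. The same cluster C array had the pluripotency marker sum of 2333 and an epithelial marker sum of 1150, against 363 and 768 with cluster B and 306 and 578 with blank virus. Their part in the values of Slc2a3 was not tested.

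**Figure D5:**
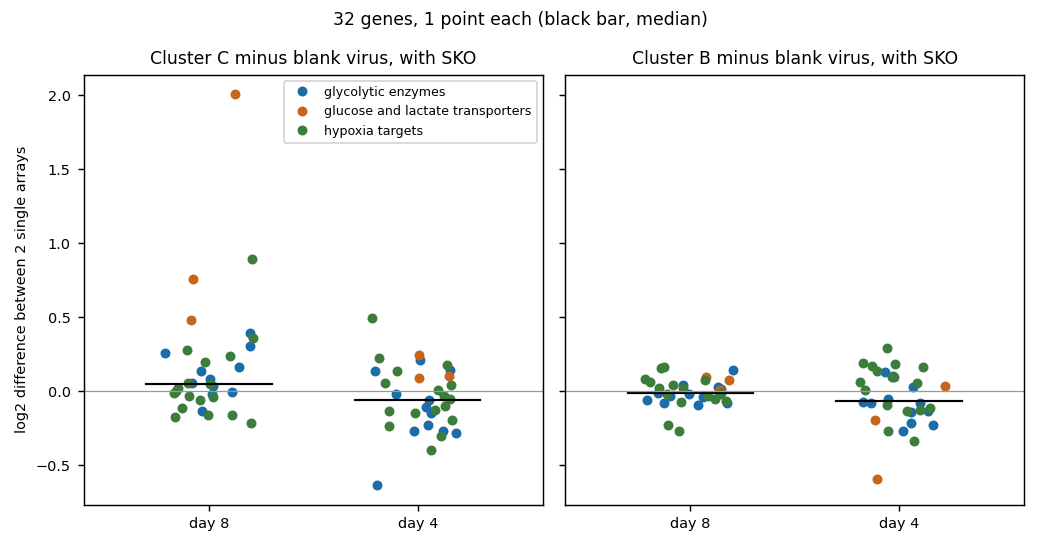
Log2 difference between 2 single arrays with SKO (vertical axis), cluster C minus blank virus on the left and cluster B minus blank virus on the right, at day 8 and day 4, with 1 point for each of 32 genes coloured by role and a bar for the median. The transporter Slc2a3 lies at 2.01 in cluster C at day 8, and the medians lie between -0.06 and 0.05.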

How the data were processed

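Per the labels' protocols, total RNA was labelled for Affymetrix whole-transcript arrays. The authors deposited log2 values for 28853 probe sets, and the submitters' processing notes name RMA and Partek. Build and probe annotation used by the authors: not given in the sources used here. RMA aligns the distributions of arrays and would hide a shift common to most genes.

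The platform annotation gave 21789 probe sets 1 gene, 1621 several and 5443 none, and 21698 matched RefSeq (GRCm38.p6) by Entrez number. The brightest probe set of each gene was kept (19938 genes). All arrays differed from each other (mean absolute difference at least 0.167).

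limma 3.58.1 (R 4.3.3) fitted 8 coefficients (SKO, day, virus, SKO by day, SKO by virus), leaving 4 residual degrees of freedom. It was also run on simulated arrays with independent noise drawn under this same model. That run cannot show how the fit behaves where conditions lack replicates. Adjusted p-values are Benjamini-Hochberg over all genes in each of 13 comparisons. Nothing in the labels says that samples came from separate cultures, so their spread may be technical.

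Members and lists were chosen with earlier results of these data known. Named genes are all members, all HIF regulators, up to 3 highest and 3 lowest called genes of each further list by the SKO difference at day 8, and Pou5f1, Klf4 and Myc. Sox2 was added after its values were seen. The alternatives tried were quantile normalization, dim genes left out, a trend with robust empirical Bayes, equal array medians, the mean over probe sets, own-chromosome probe sets (added after seeing the data), each arm alone and each array left out.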

Additional observations from a re-analysis of the deposited data

Results flagged for a closer look

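For 9 of the 32 genes the day change with SKO differed from the day change without SKO in a direct test of the difference in limma, in each case with a larger rise with SKO. Over all genes tested, 2.97% differed (1.97% towards a larger rise). The differences between the day changes, in log2 units, were 2.24 for Aldoc, 1.85 for Egln3, 1.70 for Ak4, 1.58 for Slc2a1, 1.16 for Bnip3, 1.11 for Eno2, 0.72 for Aldoa, 0.67 for Ankrd37 and 0.61 for Ndrg1. All 3 arrays of day 8 with SKO lay above all 3 of day 4 with SKO for each of the 9 genes. The 9 were called on these same arrays, so this is not separate evidence. The days with SKO did not overlap, in either direction, for 28.2% of all genes. For Eno2 the 3 arrays of day 8 without SKO lay below the 3 of day 4, so that its day changes had opposite signs. The values of Aldoc, Egln3, Slc2a1 and Eno2 kept their call under every alternative tried.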

How the results depend on the processing

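No called difference of a member changed sign under any alternative tried. Members called in the 12 fits that each left out 1 array numbered 7 to 12 for SKO at day 4 (11 with all arrays), 14 to 18 for SKO at day 8 (18), 14 to 19 for day 8 against day 4 with SKO (20), 4 to 13 for day 8 against day 4 without SKO (14), 5 to 7 for the difference in day change (9), and 0 to 1 for cluster C against blank virus and for cluster C against cluster B with SKO (0 each). The single member there was Slc2a3, without the day 4 array of cluster C with SKO (1.94 and 2.0 log2 units). The count for SKO at day 4 was 7 without the blank virus array with SKO at day 4. The count for the difference in day change was 5 without either cluster C array of the arm without SKO. That count was 14 with a trend and robust empirical Bayes, 15 with dim genes left out and 5 with probe sets on the gene's own chromosome, an alternative chosen after seeing the data; fewer genes are tested when dim ones are left out. The causes of the other shifts were not tested, and the share of all genes called under each alternative is not given here. Calls kept under every alternative numbered 7 of 11 for SKO at day 4, 14 of 18 at day 8, 12 of 20 for the days with SKO, 2 of 14 for the days without SKO and 4 of 9 for the difference. Of member values under alternatives, 2664 stayed on the same side of the threshold, 207 lost a call and 63 gained one. The rise of Slc2a3 with SKO was not past the threshold when that arm was fitted alone. No paired analysis was possible because each condition had 1 array and the labels give no replicate numbers to pair; virus is a term of the fit, so days are already compared within each virus.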

Other observations

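In the arm without SKO, the cluster C array at day 8 lay a little below blank virus for most of the 32 genes. The median difference was -0.10, with 9 of 32 genes above blank virus, against a median of -0.01 over all genes, whereas with SKO the median was 0.05 with 19 of 32 above. Slc16a3, which encodes the lactate exporter, lay at 6.51 with cluster C, against 6.81 with cluster B and 7.10 with blank virus, so cluster C stood at -0.59 from blank virus. Ak4 lay at 5.22 with cluster C, against 4.38 with cluster B and 4.64 with blank virus, 0.58 above blank virus. On the Ak4 probe set of its own chromosome the order was reversed, at 4.46 with cluster C, 5.71 with cluster B and 5.28 with blank virus. Slc2a3 lay at 5.53, 5.46 and 5.54 and showed no such gap without SKO. These are differences between single arrays, with no test.

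The lowest single-array difference from blank virus with cluster C and SKO among the 32 genes was that of Pgk1 at day 4 (-0.64, with no test), with Pgk1 at 9.35 with cluster C against 9.84 with cluster B and 9.98 with blank virus. At day 8 Pgk1 lay at 10.38 with cluster C, against 10.22 with cluster B and 10.24 with blank virus, so the order of the viruses was not the same at both days.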
